A study of Mus musculus with 12 samples.

Results

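The 10 genes described here, Acta2, Actg2, Tpm2, Cald1, Cnn1, Tagln, Myh11, Actn1, Nexn and Myom1, were listed as genes of the contractile apparatus of smooth muscle. They were taken by name from the 12975 genes of the count table. Of these, Nexn and Myom1 are better known from striated muscle. They were followed in RNA bound to ribosomes from the small intestinal muscularis of 6 mice, in 12 libraries. All mice carried PLPCreERT2, a tamoxifen-inducible Cre under a glial promoter, and the Rpl22HA allele, and all received tamoxifen at 10 to 12 weeks of age, 3 to 4 weeks before sampling, so the naïve animals carried both alleles and the drug as well. Cre switches ribosomal protein Rpl22 to a form with an HA tag in the cells it reaches, here enteric glial cells (EGCs), and an antibody to HA then pulls down their ribosomes. The T0 group was 3 naïve mice. The T3 group was 3 mice killed 3 h after their small bowel had been exposed and handled, an intestinal manipulation that inflames the muscle layer. Homogenate from each animal was split between the HA antibody and a control IgG, which gave 4 groups of 3 libraries. Mice without Cre and unprecipitated muscularis RNA were not analysed here, so the IgG pull-down was the reference for RNA that reached the beads without the tag.

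Smooth muscle shortens when myosin thick filaments pull on actin thin filaments that are anchored in dense bodies, the counterpart of the Z-discs of striated muscle. Calcium entry activates myosin light chain kinase, phosphorylation of the light chains starts the cycle, and tropomyosin, caldesmon and calponin on the thin filament set how readily myosin can bind. Smooth muscle makes up the bulk of the muscularis, in which the EGCs of the myenteric plexus are a small minority. Many contractile genes are controlled by serum response factor (SRF) with its partner myocardin, through a DNA element called the CArG box.

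Counts were unique molecular identifiers (UMIs) from a fixed window at transcript 3′ ends, so levels of different genes were set side by side as CPM, the counts of a gene scaled to a library of 1e+06 counts, with no scaling for gene length. Depth ranged from 1221788 to 2870591 counts for HA and from 88136 to 1289833 counts for IgG, with the 2 shallowest libraries both in IgG at T3. A count of 0 allowed up to 34.0 CPM in the shallowest library and 1.05 CPM in the deepest, for counting error only. All 8 glia marker genes tested, Sox10 and S100b among them, passed as higher in the naïve HA libraries, as did 16.0% of all genes. Their median was 4.24 on the log2 scale, with a summed level of 3388 to 4159 CPM in HA and 149 to 213 CPM in IgG. At T3, 7 of the 8 passed (11.8% of all genes), with a median of 2.88. The sum was then 4011 to 4797 CPM in HA and 209 to 793 CPM in IgG. The muscle origin of the tissue was as plain: in the IgG libraries Actg2 ranked between 2 and 10 and Tagln between 3 and 6 among all genes by count.

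Promoter sequence from RefSeq (build GRCm38.p6) was matched for 6 of the 10 genes, namely Acta2, Actn1, Tpm2, Cald1, Myom1 and Cnn1. The 250 bases before each start were read for the CArG box, either with all 6 inner bases A or T or with at least 5 of the 6. Each search pattern, though not each single box, equals its reverse complement, so both strands were read at once. The strict form was present in 1 of the 6 genes, Myom1, against 1.44% of the 9864 genes of the count table with a promoter. The relaxed form was present in 2 of the 6, Acta2 and Myom1, against 9.55% of those genes. A match is a description of the letters and not a site shown to be bound. The boxes of Acta2 and Myom1, and those of the light chain gene Myl9 for comparison, are printed with 10 bases on either side and the box in capitals, because they show how the element looks in 1 gene that fell with time in HA and in others that did not pass that test.
Acta2 box 84 bases upstream, chr19:34255438-34255467, minus strand: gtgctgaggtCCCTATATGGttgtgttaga
Acta2 box 34 bases upstream, chr19:34255388-34255417, minus strand: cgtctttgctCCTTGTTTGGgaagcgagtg
Myom1 box 99 bases upstream, chr17:71019448-71019477, plus strand: gccttcctggCCATAAAAGGctggctgtgg
Myl9 box 161 bases upstream, chr2:156775293-156775322, plus strand: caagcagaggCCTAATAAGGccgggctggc
Myl9 box 99 bases upstream, chr2:156775355-156775384, plus strand: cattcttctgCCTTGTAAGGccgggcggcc
The Acta2 boxes lie upstream of the RefSeq start but inside the span of the gene in GENCODE M21.

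Together the 10 genes held 3.94%, 4.46% and 4.99% of all UMIs in the IgG libraries of naïve animals 1, 2 and 4, and 1.52%, 1.70% and 1.19% in the matching HA libraries. At T3 they held 3.51%, 2.74% and 4.18% in IgG of animals 1, 3 and 4, and 0.832%, 0.934% and 1.03% in HA. The IgG and HA ranges did not overlap at either time, and the HA ranges of T0 and T3 did not overlap either. With counts scaled by the TMM factors that the tests use, the sums in HA were 11064 to 16562 CPM at T0 and 9616 to 12251 CPM at T3, with overlap. The summed HA level was 38.5%, 38.0% and 23.8% of that in IgG of the same animal at T0 and 23.7%, 34.1% and 24.7% at T3, so RNA of the contractile genes remained well measurable in the glial pull-down. Both pull-downs of an animal come from 1 homogenate, so this ratio does not compare numbers of muscle cells. Between T0 and T3, fewer muscle cells, less RNA per cell and a different share of untagged RNA on the beads cannot be told apart in bulk samples such as these.

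The sum was carried by few genes. Actg2, Tagln and Cnn1 together made up 76.5% to 81.9% of it in HA at T0 and 66.5% to 71.5% in IgG at T0. Tagln and Actg2 were among the 41 genes with the highest counts in every library, whereas Nexn ranked no better than 1873. By mean level Actg2 and Tagln led in 3 of the groups and Tagln and Cnn1 in IgG at T3, and Nexn was last in all 4. Within libraries Actg2 exceeded Tagln in 3 of 3 in HA at T0 and Tagln exceeded Actg2 in 3 of 3 in HA at T3 and in IgG at T3, while the order was mixed in IgG at T0.

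**Figure D1:**
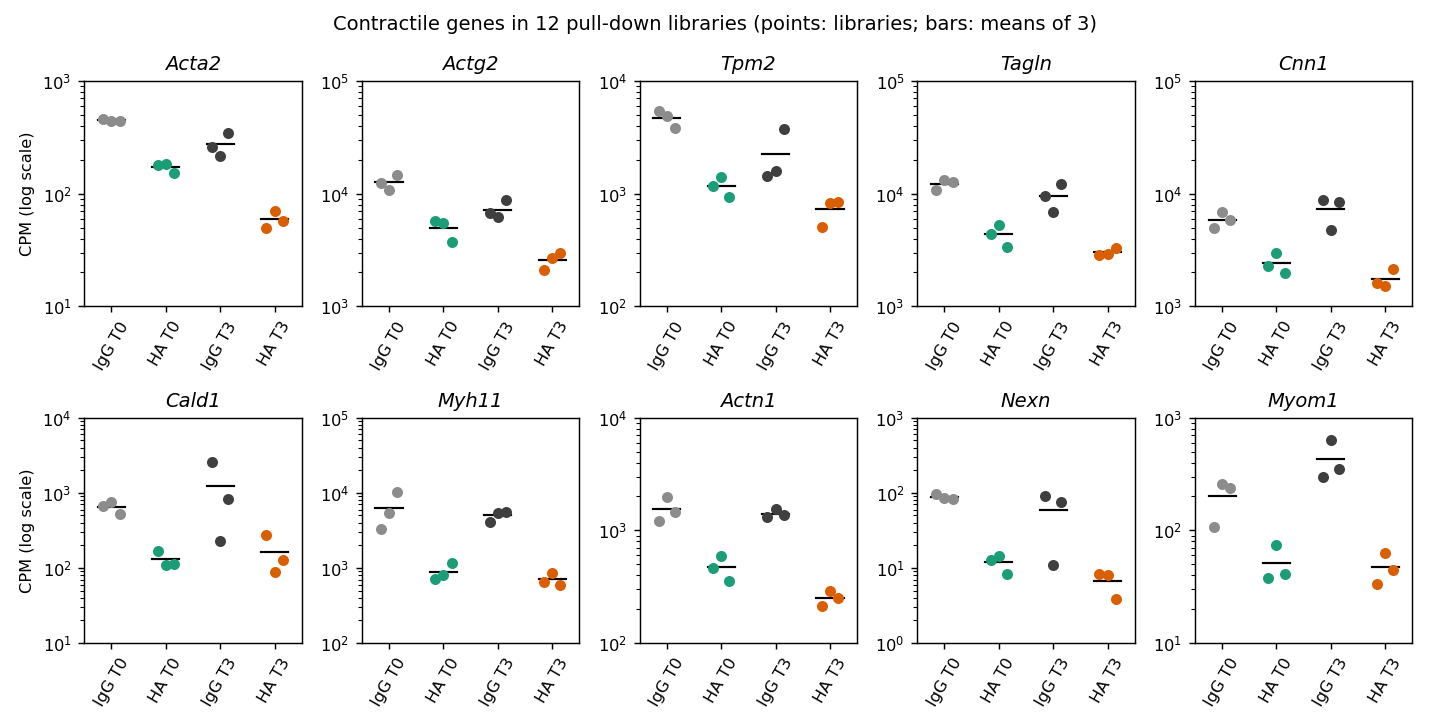
CPM of the 10 contractile genes on a log axis, with 1 panel a gene, 1 point a library and a bar for the mean of the 3 libraries in each group. HA points lie below IgG points of the same time in all panels but that of Cald1 at T3, where HA of animal 1 (277 CPM) exceeded IgG of animal 3 (228 CPM).

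Which contractile genes were lower in HA than in IgG was known when the list was drawn up, so the following contrast describes the genes and is no test of them. At T0 all 10 were lower in HA (median log2 fold change -1.89, against -0.02 over the 9823 genes tested), and all 10 passed an adjusted p of 0.05 in edgeR's quasi-likelihood test with Benjamini-Hochberg adjustment, where 14.4% of all genes passed with a lower and 16.0% with a higher level in HA. Their HA and IgG libraries did not overlap in CPM in 10 of 10 cases, as for 20.1% of all genes in that direction. At T3, 9 of the genes passed the filter on low counts and 8 were called lower (background 10.2% lower and 11.8% higher), with a median of -2.17 and no overlap in 8 of 9 (background 16.4%). The size of the difference was uneven across the apparatus. At T0 Myh11 and Nexn had the largest differences, and both actins, Tagln and Cnn1 the smallest.

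Smooth muscle contains 2 actins of its own, aortic alpha actin Acta2 and enteric gamma actin Actg2, and the enteric form had by far the higher counts. How reads shared by near-identical paralogs were counted is not given, which limits a comparison of the 2 levels. Acta2 (ENSMUSG00000035783.9, chr19:34241090-34255590, minus strand) was measured at 461, 446 and 439.6 CPM in IgG at T0 and at 179, 184 and 153 CPM in HA of the same animals 1, 2 and 4. At T3 it stood at 261, 217 and 346 CPM in IgG and at 49.1, 70.9 and 57.6 CPM in HA of animals 1, 3 and 4. The 4 groups were fully separate, with HA at T3 the lowest. Relative to IgG, HA was lower by a log2 fold change of -1.41 (SE 0.19) at T0 and -2.17 (SE 0.29) at T3.

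Actg2 (ENSMUSG00000059430.14, chr6:83512905-83536265, minus strand) reached 12395, 10797 and 14617 CPM in IgG at T0 and 5739, 5534 and 3738 CPM in HA. At T3 the values were 6762, 6183 and 8759.8 CPM in IgG and 2110.0, 2683 and 2960.1 CPM in HA. In CPM both pull-downs were lower at T3 without overlap. Scaled by TMM, HA of animal 4 at T3 (3517 CPM) lay above HA of animal 4 at T0 (3486 CPM), and IgG stayed separate. Actg2 retained the largest share in HA of any of the genes in 3 of 6 animals, and HA was lower than IgG by -1.35 (SE 0.24) at T0 and -1.40 (SE 0.27) at T3 on the log2 scale.

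On the thin filament, Tpm2, the beta tropomyosin that lies along actin, was counted at 5407, 4925 and 3837 CPM in IgG at T0 and at 1178, 1396 and 937 CPM in HA. At T3 IgG held 1429.6, 1587 and 3774 CPM and HA 504, 824 and 844 CPM. The IgG library of animal 4 stood apart at T3, close to the naïve values, and the log2 fold change of HA against IgG was -2.04 (SE 0.23) at T0 and -1.58 (SE 0.36) at T3. Without IgG T3 replicate 4 it was -0.79 at T3 (adjusted p = 0.0487 in edgeR).

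Cnn1, the calponin that damps actomyosin ATPase activity, had 4977, 6831 and 5850.4 CPM in IgG and 2282, 2979 and 1992 CPM in HA at T0. At T3 it had 8805, 4738 and 8414 CPM in IgG and 1612, 1513 and 2152 CPM in HA. Within each pull-down the 2 times overlapped. Its HA difference was the smallest at T0, at -1.31 (SE 0.22), and -1.97 (SE 0.30) at T3.

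Tagln, or transgelin, an actin-binding relative of the calponins and a standard smooth muscle marker, had 10809, 13125 and 12757 CPM in IgG and 4417, 5297 and 3346 CPM in HA at T0. The T3 values were 9463, 6901 and 12313 CPM in IgG and 2861, 2932 and 3285 CPM in HA. HA at T3 lay just below HA at T0 in CPM, and scaled by TMM all 3 values at T3 lay above the lowest at T0 (3121 CPM). HA was lower than IgG by -1.51 (SE 0.23) and -1.58 (SE 0.28). Its 3′ counting window overlaps Pcsk7 and the antisense gene Gm48529 on the opposite strand, and whether the counting used strand is not given in the sources used here.

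Cald1, caldesmon, which holds tropomyosin in its blocking position, differed from the other genes in that 1 animal stood out. Naïve levels were 677, 754 and 527 CPM in IgG and 167, 111 and 111 CPM in HA. At T3 animal 1 had 2587 CPM in IgG and 277 CPM in HA, animal 3 had 228 and 89.6 CPM, and animal 4 had 829 and 126 CPM. Animal 1 was thus the highest of its time in both pull-downs, although these were made from separate aliquots of 1 homogenate. HA was lower than IgG by -2.35 (SE 0.23) at T0. At T3 the difference was -2.79 (SE 0.98), with overlapping groups and an adjusted p of 0.116 in edgeR, and it was called when the animal was kept as a block (-2.45, SE 0.31, adjusted p = 2.6e-08 in edgeR). Over 14 alternatives its adjusted p ran from 2.6e-08 to 0.284, and it was called in 5, among them without HA T3 replicate 1 (0.0453) and without IgG T3 replicate 3 (0.0330).

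Myh11, the smooth muscle myosin heavy chain and the motor of the thick filament, was counted at 3282, 5432 and 10149 CPM in IgG at T0 and at 709, 794 and 1178 CPM in HA. At T3 IgG held 4130.0, 5379 and 5549 CPM and HA 654, 867 and 589 CPM. Animal 4 was the highest naïve animal in both pull-downs. HA was at 21.6%, 14.6% and 11.6% of IgG at T0 and at 15.8%, 16.1% and 10.6% at T3, and Myh11 was 1 of the 2 genes with the lowest ratio in 5 of 6 animals. The log2 fold changes were -2.85 (SE 0.40) and -2.74 (SE 0.28). In consequence Myh11 made up 6.43% of the summed contractile counts in HA at T0 (SD 3.03, n = 3) and 13.6% in IgG (SD 6.12, n = 3), and it was lower in HA than in IgG in 3 of 3 animals (4.67% against 8.32%, 4.68% against 12.2% and 9.93% against 20.3%).

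The dense body gene Actn1, alpha-actinin 1, which crosslinks actin, had 1211, 1978 and 1447 CPM in IgG and 459.9, 588 and 358 CPM in HA at T0. At T3 it had 1305, 1554 and 1372 CPM in IgG and 214, 290.2 and 249.9 CPM in HA. IgG ranges of the 2 times overlapped, whereas the HA libraries of T3 all lay below those of T0 in CPM. Scaled by TMM, 1 HA library of T3 (341 CPM) lay above the lowest of T0 (334 CPM). HA was lower by -1.74 (SE 0.24) at T0 and -2.39 (SE 0.26) at T3. Actn1 is also made by many cells that are not muscle.

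Nexn, nexilin, an actin-binding protein best known from cardiac Z-discs, was the least abundant of the genes, with 95.3, 85.7 and 83.7 CPM in IgG and 12.7, 14.5 and 8.36 CPM in HA at T0. It had the largest naïve difference, -2.92 (SE 0.29). At T3 it had 8, 1 and 19 counts in IgG and 10, 12 and 5 counts in HA of animals 1, 3 and 4, and was left out of that test by the filter on low counts. The single count of IgG in animal 3, or 10.9 CPM, has an exact Poisson interval of 0.275 to 60.5 CPM, so the ratio of 73.8% in that animal is not a precise value.

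Myom1, myomesin 1, a protein of the M-band of striated muscle, had 108, 257 and 239 CPM in IgG and 38.0, 73.8 and 41.1 CPM in HA at T0. At T3 it had 295, 630.3 and 354 CPM in IgG and 33.6, 62.9 and 44.4 CPM in HA. All IgG values at T3 exceeded those at T0, while HA values of the 2 times overlapped. The HA difference was -2.04 (SE 0.34) at T0 and, at -3.05 (SE 0.32), the largest of the tested genes at T3. Of 9 striated muscle genes listed, 5 had rows in the count table and their sum was 646 to 860.5 CPM in IgG at T0 and 195 to 358 CPM in HA. Nearly all of this sum was Ckm, with a mean of 703 CPM in IgG at T0 and 287 CPM in HA at T0. In IgG at T0 Myh7, Acta1, Tnnt3 and Myh6 had means of 15.1, 4.46, 3.35 and 1.98 CPM. The part of striated muscle in the Myom1 counts was not tested. The Myom1 window lies inside the long noncoding gene Gm26561 on the same strand.

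**Figure D2:**
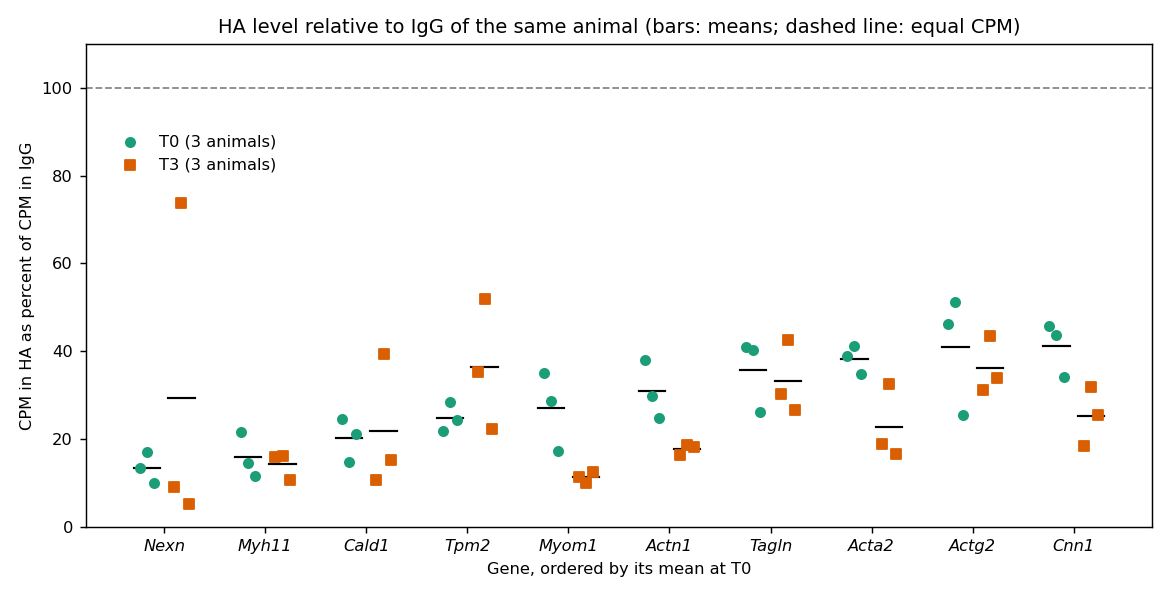
CPM in HA as a percent of CPM in IgG of the same animal, for each contractile gene at T0 (circles) and T3 (squares), with bars for means of 3 animals and a dashed line at equal CPM. All points lie below 100%, Myh11 is between 10.6% and 21.6%, and the single high Nexn square at 73.8% rests on 1 IgG count.

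The choice of genes named depletion from HA and not the change with time, which was tested, although both use the same HA libraries and earlier results were known. In HA, 3 of the 10 genes fell 3 h after manipulation and none rose (edgeR's quasi-likelihood test, adjusted p under 0.05), where 15.1% of the 9441 genes tested fell and 18.7% rose. The largest of these changes was in Acta2, at a log2 fold change of -1.27 (SE 0.20, adjusted p = 5.13e-05 in edgeR). Actg2 fell by 0.70 (SE 0.20, adjusted p = 0.0129 in edgeR) and Actn1 fell by 0.64 (SE 0.20, adjusted p = 0.0194 in edgeR). The fall of Acta2 was called under all 14 alternatives tried (-1.53 to -1.13), that of Actg2 under 11 and that of Actn1 under 10. The calls of both Actg2 and Actn1 were lost without HA T3 replicate 1 (adjusted p = 0.0835 and 0.0986 in edgeR). Actn1 also lost its call without HA T0 replicate 2 or HA T3 replicate 4 (adjusted p = 0.114 and 0.0798 in edgeR). The count of 3 became 1 without HA T3 replicate 1 and 5 without HA T0 replicate 4.

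The other 7 genes did not pass in HA. Their log2 fold changes were -0.53 (SE 0.40) for Nexn, -0.43 (SE 0.22) for Tpm2, -0.27 (SE 0.19) for Tagln, -0.20 (SE 0.20) for Cnn1, -0.07 (SE 0.19) for Myh11, 0.18 (SE 0.29) for Myom1 and 0.58 (SE 0.44) for Cald1. The median of the 10 was -0.35, against -0.02 over all genes. In CPM, 6 of the 10 were lower in every T3 library than in every T0 library, as were 35.2% of all genes. Scaled by TMM only Acta2 of the 10 was, against 21.9% of all genes.

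CPM takes no account of the TMM factors, which were 0.842 to 0.865 in HA at T3 and 0.996 to 1.07 in HA at T0 in the fit of all 12 libraries. With library totals as the only scaling, the median over all genes moved to -0.28 and the split of calls from 1765 higher and 1422 lower to 1208 higher and 2641 lower. Of the contractile genes 6 were then called lower, with Tpm2, Tagln and Cnn1 added, and their median was -0.61.

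In the IgG pull-down 0 of the 10 genes were called with time in edgeR or in DESeq2, where 1.03% of 5219 genes were called lower and 4.43% higher. At an unadjusted p under 0.05 there were 4, namely Acta2 at -0.69 (SE 0.29), Actg2 at -0.82 (SE 0.31), Tpm2 at -1.04 (SE 0.40) and Myom1 at 1.04 (SE 0.37), with edgeR adjusted p-values of 0.194, 0.149, 0.148 and 0.122. The share of all genes at that unadjusted threshold is not given here, so these 4 are not shown to be an excess. Tpm2 was called without IgG T3 replicate 4 (-1.75, adjusted p = 0.00656 in edgeR), the library with the naïve-like level. The first 3 were lower at T3 without overlap, as for 12.6% of all genes, and Myom1 was higher without overlap, as for 13.4%. Scaled by TMM, Nexn joined the 3 lower genes (background 16.0%) and Myom1 stayed higher (background 11.4%). The median of the 10 genes in IgG was -0.36, against -0.02 over all genes.

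The interaction of antibody and time, fitted in all 12 libraries, tested for a change that was not shared by HA and IgG. For 0 of the 10 genes was it called in edgeR, with adjusted p-values from 0.632 to 0.998, and 0 reached an unadjusted p under 0.05. DESeq2 also called 0. The background was 0.330% of 10314 genes, or 34 calls, and 156 were made with the animal as a block, with 0 of the 10 genes among them. The estimates ranged from -0.76 (SE 0.49) for Myom1 to 0.69 (SE 0.49) for Tpm2. Neither was distinguishable from 0 in this fit, which did not pair HA and IgG of an animal. Without IgG T3 replicate 4 the estimate for Tpm2 was 1.35 (adjusted p = 0.0592 in edgeR). The fall of Acta2 in HA was therefore not shown to differ from its change in IgG (interaction -0.51, SE 0.34, adjusted p = 0.637 in edgeR).

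**Figure D3:**
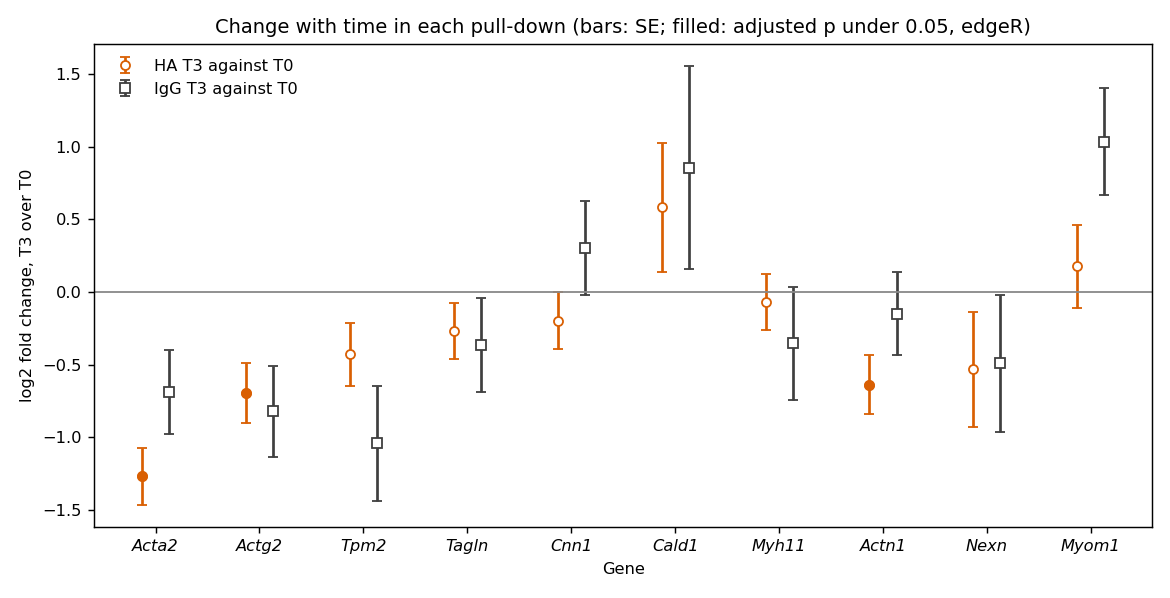
Log2 fold change from T0 to T3 of each contractile gene in HA (circles) and IgG (squares), with bars for the standard error and filled symbols for an adjusted p under 0.05 in edgeR. The 3 filled symbols are the HA values of Acta2, Actg2 and Actn1, and 0 IgG symbols are filled.

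Other cell types also changed in the HA libraries between T0 and T3. The summed level of 5 mesothelium markers went from 165 to 229 CPM at T0 to 25.7 to 34.1 CPM at T3, and that of 6 fibroblast markers from 854 to 1055 CPM to 217 to 427 CPM. In IgG the mesothelium sum also went from 528 to 1011 CPM to 125 to 205 CPM and the fibroblast sum from 2348 to 2656 CPM to 732 to 1456 CPM. Markers of interstitial cells of Cajal, the pacemaker cells of the muscle layers, went from 2805 to 3794 CPM to 1313 to 1707 CPM in HA, with Kit, Ano1 and Hand1 called lower. In IgG their sum was 363 to 457 CPM at T0 and 233 to 862 CPM at T3, with overlap. The interaction of antibody and time was called for 1 of the 4 genes (0.330% of all genes). Glia markers summed to 4011 to 4797 CPM in HA at T3. Without Gfap, an intermediate filament gene that rose by 4.12 on the log2 scale (SE 0.20), the other 7 summed to 3292 to 4029 CPM at T0 and 2496 to 3125 CPM at T3. These sums are not scaled by TMM, and the 7 did not move together. Mean CPM in HA went from 1723 to 785 for Gpr37l1, 691 to 548 for Entpd2, 461 to 317 for Sox10 and 72.0 to 45.8 for Fabp7. It went up from 587 to 793 for S100b, 154 to 166 for Foxd3 and 21.6 to 64.4 for Sox2. None of the marker genes of these 4 lists was at 0 in any group as a whole. Their part in the fall of Acta2, Actg2 and Actn1 was not tested.

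Around the 10 genes, 59 further genes of the contractile system were listed by role, of which 54 had rows in the count table. These lists too were chosen with earlier results known, so the counts describe the genes and are no test of them. At T0, 37 of the 51 tested were lower in HA and 3 were higher (median -1.08). Of all genes, 14.4% were lower and 16.0% higher (median -0.02). The thick filament and its regulators were lower in 7 of 7, among them the nonmuscle myosin Myh9 at -2.18 (SE 0.29). Genes of dense bodies and intermediate filaments were lower in 15 of 16, among them vinculin, Vcl, at -1.79 (SE 0.23), and the scaffold protein Pdlim7 at -1.56 (SE 0.22). Of other thin filament genes 5 of 9 were lower and 1 was higher, and of genes for excitation and signalling 8 of 13 were lower, with the guanylate cyclase subunit Gucy1a3 at -3.36 (SE 0.41). At T3, 25 of 45 were lower and 3 higher (median -1.28), where 10.2% of all genes were lower and 11.8% higher (median 0.02). Among the lower were Tpm1 at -1.96 (SE 0.25), smoothelin, Smtn, at -2.10 (SE 0.28), Myh9 at -2.25 (SE 0.31) and desmin, Des, at -1.96 (SE 0.27).

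A few contractile genes went the other way. Cnn3, the acidic calponin found in many cells outside muscle, was higher in HA at T0 (1.39, SE 0.23) and at T3 (1.96, SE 0.31). Tpm3 and Ptrf, a tropomyosin with nonmuscle forms and a coat protein of caveolae, were called higher at T3 (0.87, SE 0.28, and 0.75, SE 0.26), and these calls were lost in 5 and 6 of 14 alternatives. At T0 Tpm3 and Ptrf did not pass (0.47, SE 0.20, and 0.10, SE 0.23).

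Transcriptional control genes were listed too. Of 6 tested at T0, Srf (-0.70, SE 0.24) and myocardin, Myocd (-2.0, SE 0.64), were lower in HA. Foxf1, a mesenchymal forkhead factor, was higher (1.62, SE 0.25), as was the SRF cofactor Mkl2, which rested on 23 to 30 counts a library in HA and 0 to 4 in IgG and lost its call in 6 of 14 alternatives. Mkl1 and Elk1 did not pass (-0.33, SE 0.25, and -0.04, SE 0.29). Of all genes, 14.4% were lower and 16.0% higher. At T3, 0 of the 4 tested were called in HA against IgG. These were Srf (-0.72, SE 0.29), Mkl1 (-0.51, SE 0.39), Foxf1 (0.87, SE 0.33) and Elk1 (0.68, SE 0.50), and Myocd and Mkl2 were not tested there. With time in HA, Srf, Myocd, Mkl1, Foxf1 and Elk1 did not pass, at 0.09, 0.16, -0.02, -0.19 and 0.46. Mkl2 was called lower, as were 15.1% of all genes, with 1 to 6 counts a library at T3. Gata6 had too few counts for any test but the interaction.

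**Figure D4:**
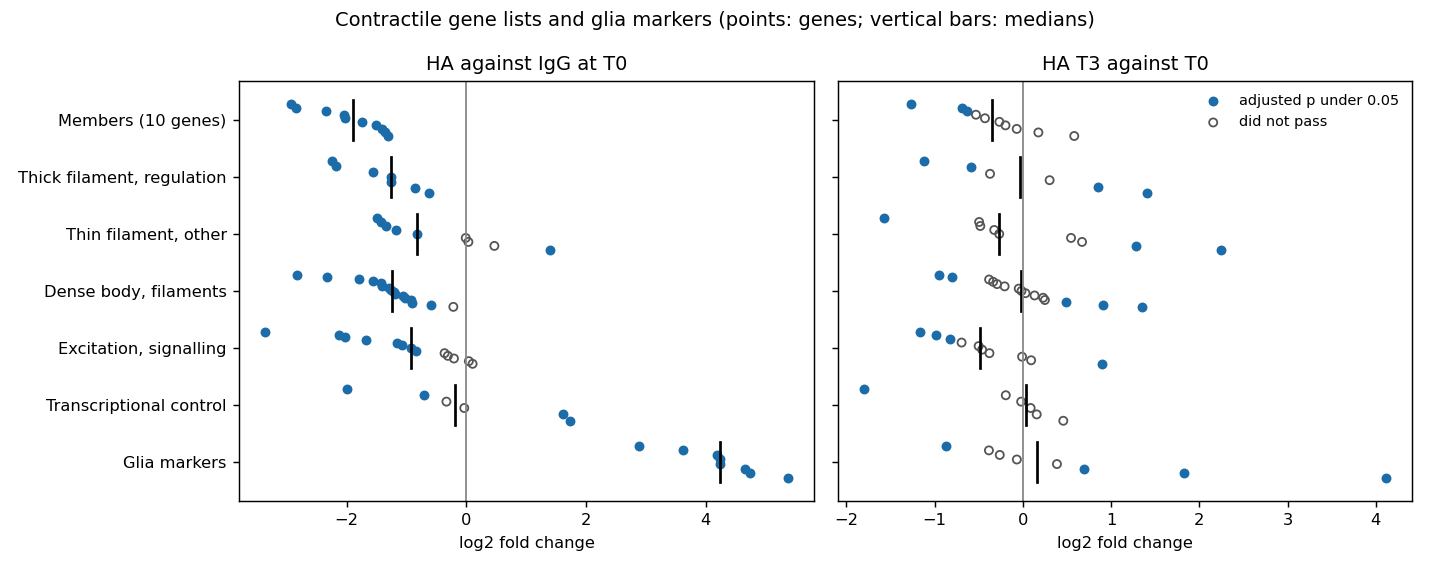
Log2 fold changes of the 10 contractile genes, 5 further contractile lists and 8 glia markers, for HA against IgG at T0 (left) and HA at T3 against T0 (right), with 1 point a gene, filled where the adjusted p was under 0.05, and vertical bars for list medians. At T0 the contractile medians lie below 0 and the glia median at 4.24, while with time in HA contractile genes fall on both sides of 0.

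With time in HA, the further contractile genes moved in both directions, 8 higher and 9 lower of 46 tested (median -0.12), shares near the 18.7% and 15.1% of all genes. Those that rose included nonmuscle relatives of the 10 genes, Tpm3 (2.25, SE 0.17), Actn4 (1.35, SE 0.18), Myh9 (1.40, SE 0.24) and Cnn3 (1.29, SE 0.19). Those that fell included myosin light chain kinase, Mylk (-1.12, SE 0.19), caveolin Cav1 (-0.99, SE 0.20), Pdlim3 (-0.95, SE 0.20) and the cGMP kinase substrate Mrvi1 (-0.83, SE 0.18). All 8 kept their direction under 14 alternatives, and the calls held in 14 but for Mylk, called in 13. With library totals as scaling, the calls over the lists were 6 higher and 20 lower. In IgG 2 of 45 rose, Tpm3 (1.67, SE 0.33) and Myh9 (1.34, SE 0.34), a share near the 4.43% of all genes, and 0 were called lower in edgeR or DESeq2, with 7 at an unadjusted p under 0.05 in either direction. Without IgG T3 replicate 4, neither was called, and 1 was called without IgG T0 replicate 1, 2 or 4 or IgG T3 replicate 3. Without IgG T3 replicate 1, Myh9 was not called (adjusted p = 0.0928 in edgeR), and the calls were 1 higher and 1 lower. The interaction was called for 0 of 53 in edgeR and in DESeq2, with 6 at an unadjusted p under 0.05, and for 1 with the animal as a block. For neither the 7 nor the 6 is the share of all genes at the unadjusted threshold given here.

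Ratios of 2 genes within a library do not depend on scaling, and they set each contractile gene against a relative of broader expression. Tpm3, Actn4, Myh9 and Cnn3 were picked after their rise in HA was seen. A lower ratio in HA at T3 followed from that choice and is no separate result. Tpm3 and Myh9 were also those called higher in IgG. Pairs with Tpm4, Cnn2 and Myh10 overlapped between times in HA, and Acta2/Actb and Actg2/Actg1 did not. Myh10 had only 5 to 8 counts a library in HA at T3. Tpm2 exceeded Tpm3 by 48.0 to 77.7 times in IgG at T0 and by 6.08 to 12.3 times at T3, and in HA the ratio was 8.33 to 12.9 at T0 and 1.12 to 2.09 at T3. The ratio fell with time in both pull-downs without overlap. Actn1 to Actn4 stood at 2.43 to 2.47 in IgG and 1.26 to 1.45 in HA at T0, and at 1.04 to 1.35 and 0.296 to 0.426 at T3, again separate in both. Myh11 to Myh9 went from 36.0 to 116 down to 12.6 to 29.3 in IgG and from 33.0 to 47.6 down to 13.5 to 15.1 in HA.

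Cnn1 to Cnn3 was the exception among these 4 pairs. In IgG the ratio was 68.7 to 77.0 at T0 and 56.5 to 77.6 at T3, with overlap, and in HA 7.01 to 15.3 at T0 and 3.16 to 4.78 at T3, without overlap. With 3 libraries against 3, an exact two-sided permutation test of a ratio cannot go below 0.10, so no p is given.

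**Figure D5:**
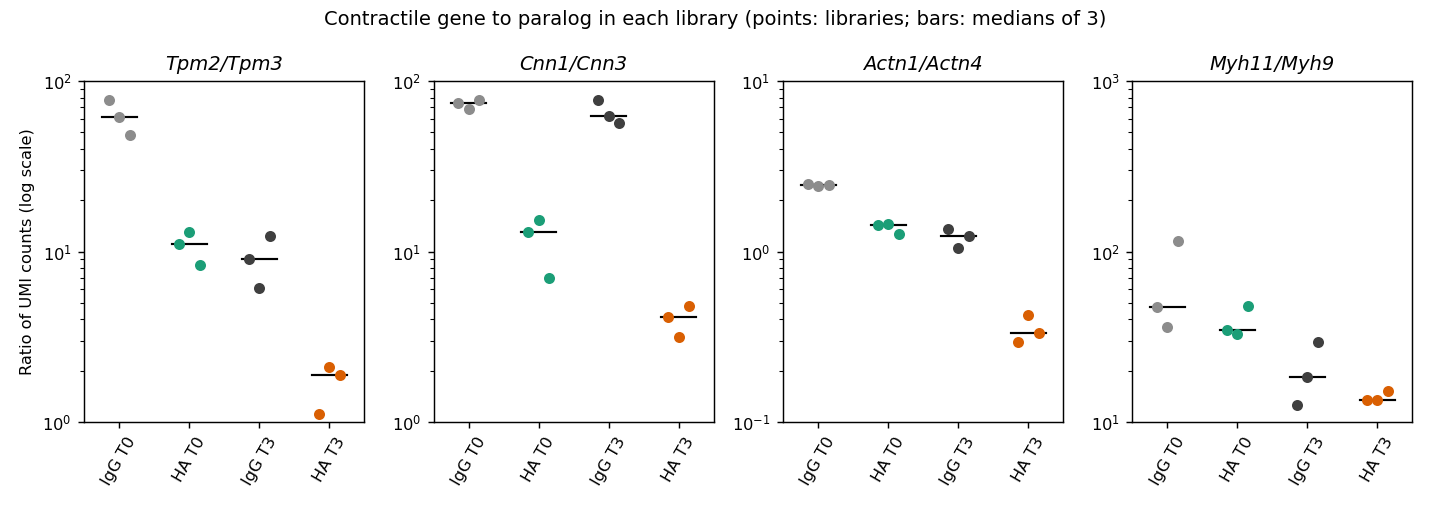
Ratio of UMI counts of a contractile gene to its paralog in each library on a log axis, with 1 panel a pair, 1 point a library and bars for medians of 3. Ratios at T3 lie below those at T0 in both pull-downs for Tpm2/Tpm3, Actn1/Actn4 and Myh11/Myh9, and for Cnn1/Cnn3 only in HA. The paralogs shown were picked after their rise in HA was seen.

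The genes whose levels followed the mean of the 10 most closely over the 12 libraries were Tpm1 (Pearson r = 0.985 with the mean centred log2 CPM of the 10), Smtn (0.984), the intermediate filament gene Synm (0.974), Fnbp1 (0.970), Myl9 (0.967), the enkephalin gene Penk (0.964), the muscle creatine kinase Ckm (0.964), the guanylate cyclase subunit Gucy1b3 (0.961), the BK channel Kcnma1 (0.954) and the water channel Aqp1 (0.953). The 10 genes themselves reached 0.806 (Cald1) to 0.983 (Tagln). These values describe libraries that share antibody and depth, and carry no test.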

How the data were processed

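Libraries were made by a bulk version of MARS-seq, and pools of up to 8 samples were formed by their qPCR signal, with pool membership not given in the sources used here. The authors trimmed reads with cutadapt, aligned them with STAR 2.4.2a to mm10, and counted UMIs with HTSeq over a window of 1000 bases before to 100 bases after each 3′ end, from a Gencode annotation given as version 10. The deposited tables hold raw UMI counts. How reads shared by near-identical paralogs were counted is not given in the sources used here.

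Counts were tested with edgeR 4.0.16 (TMM scaling, filterByExpr, quasi-likelihood test, R 4.3.3) on the groups compared, or on all 12 libraries for the interaction. These main fits treated the libraries as independent and did not pair HA and IgG of 1 animal. Adjusted p-values are Benjamini-Hochberg over all genes tested. DESeq2 1.42.0, other scalings and filters, an animal block and leaving out each library were alternatives. The model was also run on simulated counts with 1 fixed spread for all genes, large changes in well-counted genes and no pairing of animals. That run does not test the smaller changes called here. Gene positions are from GENCODE M21 (GRCm38). The 10 genes and all lists were chosen with earlier results of these data known. Of the further genes, those named per contrast are up to 4 in each direction with the smallest p among those called, every transcriptional control gene, and the 10 most correlated with the mean of the 10 genes. The paralog pairs, Tpm3 and Ptrf at T0, and Myl9 among the printed boxes were picked after values were seen, as were the TMM-scaled overlaps and the glia sum without Gfap. One glia marker is not reported here and was left out of that list.

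HA and IgG libraries of 1 animal come from 1 homogenate, which pairs them. Over 10314 genes their deviations from group means correlated at 0.268, 0.269 and 0.273 at T0 and 0.162, 0.153 and 0.0886 at T3, and between different animals at no more than 0.00791. Animals of T0 and T3 are different mice.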

Additional observations from a re-analysis of the deposited data

How the results depend on the processing

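The HA against IgG differences of the 10 genes kept their direction under every alternative that gave a value, and all calls at T0 held. With time, values that changed sign were called under neither setting, and they were not all near 0 (Cald1 in IgG, 0.86). With library totals as scaling, 6 of the 10 genes were called in HA and Myom1 moved to -0.090, and 26 further contractile genes were called. One shared fit of all 12 libraries left 1 of the 10 called in HA, and gave 704 genes, 1 of the 10 (Actg2) and 4 further contractile genes in IgG. No filter gave 519 genes, 1 of the 10 (Tpm2) and 4 further contractile genes in IgG. Interaction calls were 20 with RLE scaling, 8 with library totals, 80 with DESeq2 and 156 with the animal as replicate block, a true pairing of HA and IgG, which called 1 further contractile gene and gave 0.15 for Cald1. Interaction values of the other sign were -0.12 (RLE), -0.31 (totals), -0.038 (TMM without contractile genes) and -0.13 (DESeq2) for Nexn, and with totals -0.15 for Actg2, -0.020 for Myh11 and -0.17 for Tagln. The summed HA level at T3 was 10951 CPM when scaled by TMM, against 9325 CPM. The causes were not tested.

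Animals of T0 and T3 share only numbers, so a replicate block on those numbers in the comparisons of T3 with T0 is no pairing. It gave 0.074 for Cnn1 in HA, lost Actg2 (adjusted p = 0.134), called Cald1 higher in HA (adjusted p = 0.00434) and as the 1 gene of the 10 in IgG (0.0390). Between pull-downs the animal block changed no other call of a named gene than that of Cald1 at T3. Nexn, untested at T3, was called in all 9 alternatives that tested it (-3.41 to -2.60).

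Leaving out 1 library at a time gave 849 to 1977 genes for HA against IgG at T3, and 18 further contractile genes without HA T3 replicate 4 (range 18 to 29). For HA with time it gave 1 to 5 of the 10 genes, 5 without HA T0 replicate 4 and 1 without HA T3 replicate 1, with Myh11 at -0.24 to 0.11 and Myom1 at -0.089 to 0.53. For IgG with time it gave 167 to 333 genes, 0 to 1 of the 10 (Tpm2, without IgG T3 replicate 4) and 0 to 2 further contractile genes, with Actn1 at -0.32 to 0.00051, Cald1 at -0.23 (without IgG T3 replicate 1) to 1.34 and Myh11 at -0.70 to 0.19. Interaction calls ranged from 5 to 95, with Actg2 at -0.0033 to 0.41, Cald1 at -0.79 to 0.81, Myh11 at -0.23 to 0.64, Nexn at -0.40 to 0.42, Tpm2 at 0.39 to 1.35 and Tagln at -0.070 to 0.46. The IgG libraries of T3 limit what can be seen of low genes such as Nexn.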

Other observations

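The 2 smooth muscle actins did not keep one ratio. Acta2 counts were 0.0312 to 0.0408 of those of Actg2 in HA at T0 and 0.0195 to 0.0264 at T3, without overlap, and 0.0301 to 0.0413 at T0 and 0.0352 to 0.0395 at T3 in IgG, with overlap. Tpm2 to Tpm4 in HA was 11.2 to 26.9 at T0 and 12.1 to 15.9 at T3, and Cnn1 to Cnn2 was 4.79 to 6.45 and 4.97 to 9.80, so these pairs overlapped between times where Tpm2/Tpm3 and Cnn1/Cnn3 did not. Myh11 to Myh10 overlapped too, at 103 to 178 and 133 to 162 in HA and at 144 to 255 and 82.5 to 229.8 in IgG, unlike Myh11/Myh9. Myh10 had only 8 to 28 counts a library in HA at T0 and 5 to 8 at T3, and in IgG 5 to 57 and 2 to 6. Its ratios are therefore imprecise, and their overlap does not show that Myh10 and Myh9 behaved differently.

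Markers of interstitial cells of Cajal were called higher in the HA pull-down at T0 in 3 of 4 cases (16.0% of all genes), the opposite of the contractile genes. Their sum was 2805 to 3794 CPM in HA and 363 to 457 CPM in IgG. Neuron markers were called lower in HA at T0 in 5 of 8 cases (14.4% of all genes).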
